A study of Homo sapiens with 18 samples.

Results

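Of the 107878 regions where S9.6 peaks were called in at least 1 of 4 DRIP-seq libraries of HCT116 cells, 4337 appeared and 3839 disappeared after 5 min of camptothecin (CPT). DRIP-seq (DNA-RNA immunoprecipitation and sequencing) recovers genomic fragments that carry a DNA:RNA hybrid with the S9.6 antibody. Peaks of the 4 lists (2 libraries of untreated cells, NT, and 2 of cells given 10 μM CPT for 5 min) were merged into intervals wherever they shared at least 1 bp. An interval was called gained when both 5 min libraries had a peak in it and neither NT library did (4.02% of all intervals), and lost in the reverse case (3.56%). Another 4562 intervals had a peak in all 4 lists and are called kept below, and the other 95140 rested on 1 library of a side. Of these 95140, 5656 had a peak in both replicate 2 lists and neither replicate 1 list, more than either the gained or the lost class. The reverse held for 1445. The 6 DRIP lists of the series, which include 60 min of CPT, merged into 143381 intervals.

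HCT116 is a human colorectal carcinoma cell line. NT cells received no CPT, and no other allele, strain or agent separated the groups. Each of the 2 replicates per group was 1 library made from 2 pooled immunoprecipitations of genomic DNA cut with a mixture of restriction enzymes, so that a peak can be no finer than the fragment that carried the hybrid. The cells were lysed after harvest and washes that followed the end of CPT, so hybrids present at lysis were read. In the paper's DRIP at selected gain sites, little hybrid was seen when lysis came directly after CPT. Much more was seen after a recovery step without drug. A cross-linking assay of the paper in HeLa cells, without DNA extraction, did show gains directly after CPT. Both 5 min libraries had fewer filtered reads than the NT library of the same number, and depth is not part of the peak lists. Genes that mark epithelium did carry peaks (7 of 10 markers, among them KRT8, KRT18, KRT19 and ELF3, in both NT and 7 in both 5 min libraries), but so did 3 of 5 neuronal markers in NT, so a peak at a marker gene does not identify the cell type.

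R loops are three-stranded structures in which nascent RNA pairs with the template DNA strand and leaves the other DNA strand single. They form behind RNA polymerase, most readily where the nontemplate strand is rich in guanine and where the DNA is negatively supercoiled, and are known at the starts and ends of active genes. Topoisomerase I (Top1) relaxes the supercoils of transcription, and CPT traps it on the DNA as a cleavage complex, which also blocks elongating polymerases.

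The sequences under the strongest peak summits that meet no annotated exon show the contrast between gained and lost intervals in base composition. Each is 200 bp of GRCh37, on the + strand from 5′ to 3′, and capitals mark runs of GGG or CCC, that is, guanine runs on either strand. A window is centred on the summit and can run past the end of its interval. The first gained window lies 861 bp upstream of RPS6 (ribosomal protein S6) and the other gained window in an intron of PLEKHG4B (a guanine nucleotide exchange factor gene). The lost windows lie in an intron of the long noncoding RNA gene SNHG27, in an intron of RANBP3 (a RAN-binding nuclear export cofactor) and in an intron of SLC16A8 (a monocarboxylate transporter).
gained, RPS6, chr9:19380995-19381194: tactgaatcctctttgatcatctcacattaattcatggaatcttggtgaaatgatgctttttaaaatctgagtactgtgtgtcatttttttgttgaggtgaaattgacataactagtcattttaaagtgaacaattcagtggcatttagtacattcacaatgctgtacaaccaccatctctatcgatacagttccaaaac
gained, PLEKHG4B, chr5:96764-96963: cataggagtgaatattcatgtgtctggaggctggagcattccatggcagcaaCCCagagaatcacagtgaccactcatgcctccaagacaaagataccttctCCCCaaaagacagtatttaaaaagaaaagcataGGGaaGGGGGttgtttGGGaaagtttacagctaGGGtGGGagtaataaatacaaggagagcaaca
lost, SNHG27, chr4:132663811-132664010: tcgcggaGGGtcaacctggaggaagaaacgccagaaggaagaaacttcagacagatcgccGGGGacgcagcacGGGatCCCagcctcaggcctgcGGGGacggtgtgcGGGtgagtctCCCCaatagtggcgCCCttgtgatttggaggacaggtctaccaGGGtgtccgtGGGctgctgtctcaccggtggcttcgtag
lost, RANBP3, chr19:5919162-5919361: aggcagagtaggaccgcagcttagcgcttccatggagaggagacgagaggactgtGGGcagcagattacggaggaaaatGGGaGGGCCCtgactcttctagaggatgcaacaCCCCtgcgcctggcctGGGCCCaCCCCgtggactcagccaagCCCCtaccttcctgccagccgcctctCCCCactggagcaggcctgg
lost, SLC16A8, chr22:38479744-38479943: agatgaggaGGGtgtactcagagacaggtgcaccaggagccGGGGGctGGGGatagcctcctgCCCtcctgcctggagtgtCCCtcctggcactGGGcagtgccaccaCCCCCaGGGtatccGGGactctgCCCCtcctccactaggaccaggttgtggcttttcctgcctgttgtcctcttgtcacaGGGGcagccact
The gained windows held 33.5% and 44.5% G and C, with 0 and 24 bases in such runs. The lost windows held 62.5%, 64.0% and 64.0%, with 33, 34 and 40 bases in runs. These 5 are among the extremes by peak strength. Over all members, the central 200 bp held at least 1 run in 96.4% of gained and 99.5% of lost intervals, against 97.4% of all intervals of the 4 lists, and the median number of bases in runs was 13 in gained, 26 in lost and 23 in kept intervals.

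The next comparison asked where along genes the change fell. Within protein-coding genes, gained intervals lay toward the start and lost intervals toward the end. Of 3017 gained midpoints inside a gene, 32.5% (Wilson 95% interval 30.9 to 34.2) lay in the first 10% of it, against 8.24% (7.28 to 9.31) of 2829 lost midpoints and 23.2% of 3390 kept ones. The last 10% of the gene held 4.81% of gained, 15.7% of lost and 9.50% of kept midpoints. In the first 50% of the gene lay 70.9% (69.3 to 72.5) of gained and 39.8% (38.0 to 41.6) of lost midpoints, with kept intervals between at 57.8%. Wilson intervals cover counting error only, since neighbouring intervals are not independent.

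**Figure D1:**
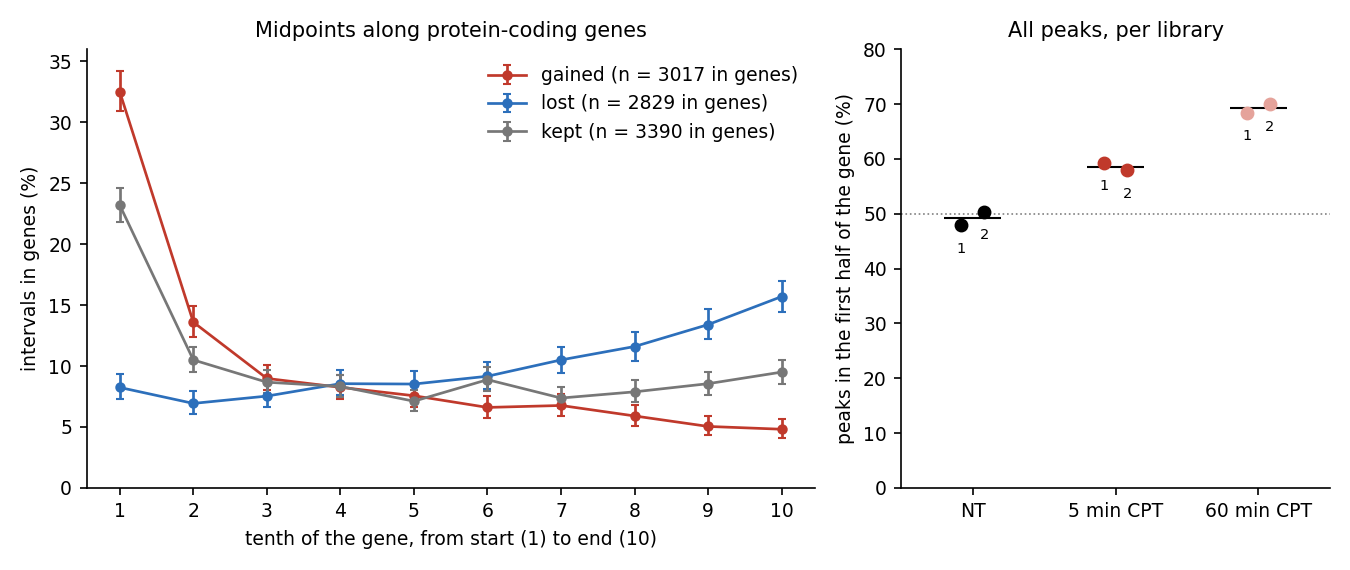
Left, percentage of gained, lost and kept midpoints inside protein-coding genes that fell in each successive 10% of the gene from start to end, with Wilson 95% intervals. Right, percentage of all peaks inside genes that fell in the first 50% of the gene, 1 point per library (numbered by replicate), with the mean of each treatment as a bar. Gained midpoints fall from 32.5% in the first 10% to 4.81% in the last, lost midpoints rise from 8.24% to 15.7%, and the 4 libraries order as NT at 47.9% and 50.4% below 5 min CPT at 59.3% and 57.9%.

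The shift was also read in whole libraries, in which every peak counts. Here and below, whole NT and 5 min libraries are the lists that gave the calls, so they are not separate evidence. Of all peaks inside genes, 47.9% and 50.4% lay in the first 50% of the gene in NT replicates 1 and 2, and 59.3% and 57.9% in the 5 min libraries. The treatments did not overlap, and the difference of means was 9.44 percentage points (NT 49.2% ± 1.82, 5 min 58.6% ± 1.04, SD, n = 2 each), 11.5 within replicate 1 and 7.42 within replicate 2. An exact two-sided permutation test over the 4 libraries gave p = 0.333, the smallest that n = 2 against 2 allows. Peaks in the first 10% of genes made up 13% and 14.9% of in-gene peaks in NT and 19.7% in each 5 min library, and those in the last 10% made up 12% and 11.6% in NT and 7.36% and 8.67% at 5 min. The 60 min libraries stood at 68.4% and 70.1% for the first 50%, beyond the 5 min values.

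The excess of gained over lost intervals lay within 2 kb of starts and further into the gene. Zones from 0 to 2 kb and from 2 to 10 kb downstream of a start held 10.2% and 23.1% of gained intervals. The same zones held 4.45% and 14.2% of lost and 16.3% and 22.8% of kept ones. The 2 kb before a start held 5.95% of gained and 3.75% of lost intervals, but from 2 to 10 kb upstream the order was the other way, 6.64% of gained and 11.3% of lost. On the gene side of ends, from 2 to 10 kb before the end, lay 18.8% of lost and 7.95% of gained intervals. Kept intervals were near the lost ones there, at 18.3%. The difference was present in each class of gene length, with 74.5% of gained and 39.8% of lost midpoints in the first 50% of genes under 30 kb, 75.2% and 38.8% in genes of 30 to 100 kb and 63.4% and 41.2% in longer genes. It was present in each class of GC content too, 67.9% against 48.4% below 45% GC and 82.7% against 36.5% at 55% or more. Gained intervals that also had a peak in both 60 min lists lay in the first 50% in 83.8% of cases, whereas gained intervals absent from both 60 min lists did so in 41.5%, against 32% of lost intervals absent from both.

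Some genes carried both kinds of change. Gained midpoints lay inside 2396 and lost midpoints inside 1955 of 19516 protein-coding genes, and 311 genes held both (13% of the former, 15.9% of the latter). In 210 of these 311 (67.5%, Wilson 62.1 to 72.5) every gained midpoint was nearer the start than every lost one, and in 64 (20.6%) the order was reversed. RNF216, which encodes a RING-type ubiquitin ligase, gained intervals 8.10, 9.83 and 11.4 kb from its start and lost intervals at 101.4, 123.0 and 157.9 kb in a gene of 161.7 kb. RPTOR, the scaffold subunit of mTOR complex 1, had the most lost midpoints of any gene, 12, between 49.2 and 404.1 kb, and gained 3, at 0.175, 6.42 and 210.6 kb. DDB2, a damage-binding protein of nucleotide excision repair, gained at 3.91 kb and lost at 15.9 kb of its 24.8 kb. PALD1 and ANKRD11, a chromatin regulator, interleaved the classes: PALD1 lost an interval at 2.09 kb, before its gains at 3.79 to 8.20 kb, and ANKRD11 gained 4 between 5.77 and 100.8 kb among 6 lost between 36.7 and 198.9 kb.

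In the genes with the most members of 1 class, the members took up different stretches. USP10, a deubiquitinase of p53, gained 7 intervals between 2.56 and 48.9 kb of its 79.9 kb and lost none. SAE1, the SUMO-activating enzyme subunit, gained 7 between 19.1 and 78.1 kb of 97.4 kb and lost none. ABR lost 8, between 114.6 and 226.0 kb of 226.3 kb, and gained none. DNM2 (dynamin 2, a membrane-scission GTPase) lost 7, of which 6 lay between 81.4 and 105.4 kb of 115.4 kb. SLC35F2, a solute carrier gene of 137.3 kb, gained 6 between 70.8 and 106.5 kb and lost 1 at 25.3 kb, and FAM120B gained 5, all by 60.8 kb of 116.4 kb, and lost 1 at 3.24 kb. VAV2, a guanine nucleotide exchange factor, lost 9 and gained 1 at 121.4 kb of 230.7 kb. MRPS22 is a mitochondrial ribosomal protein gene whose annotated span of 354.7 kb gained 5 intervals, 4 of them at 297.0 kb or later, and MAD1L1 is a spindle checkpoint gene of 417.4 kb that lost 8 between 16.8 and 278.9 kb.

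Longer genes carried gained intervals more often. Of genes under 10 kb, 2.56% held a gained and 3.43% a lost midpoint. Of genes of 200 kb or more, 25% held a gained and 11.8% a lost one. The median length was 56.6 kb for the 2085 genes with gained midpoints only, 36 kb for the 1644 with lost only, and 26.6 kb for all protein-coding genes. A longer gene offers more room for an interval of either kind, and the 2 shares were not corrected for it.

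By gene part, the 2 classes differed in terminators more than in promoters, a part that takes in the 10 kb upstream. Within 1 kb of a start lay 9.22% of gained, 4.30% of lost and 14.2% of kept midpoints. Within 1 kb of an end lay 2.31%, 6.20% and 7.54%. Parts were assigned by the midpoint in the order promoter (a 5′ UTR exon or the 10 kb upstream), terminator (a 3′ UTR exon or the 10 kb downstream), other exon, intron and intergenic. Terminators held 9.75% (Wilson 8.91 to 10.7) of gained and 20.5% (19.2 to 21.8) of lost intervals, against 11.8% of all intervals. Kept intervals, at 18.9%, were near the lost ones. Promoters held 20.7% and 19.4%, a difference that took both signs across settings, and kept intervals exceeded both at 28.5%. Introns held 48.2% and 44.2%, other exons 1.36% and 3.36%, and intergenic sequence 867 of 4337 gained and 481 of 3839 lost intervals. Across whole libraries, the terminator share was 16.0% and 15.6% in NT and 10.2% and 13.7% at 5 min, so the treatments did not overlap, whereas the promoter share (20.1% and 21.6% against 17.5% and 21.8%) and the intergenic share (20.5% and 17.2% against 31.1% and 15.1%) overlapped.

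The strongest intervals of each part, ranked by their position in the fold-enrichment order of both libraries, named 12 genes in each direction. Fold enrichment here is that of the strongest peak over the input library. Of the gained, RPS6 (chr9:19378235-19381162, its 5′ UTR) had 15 and 25.9 in 5 min replicates 1 and 2 and no peak in NT. PLEKHG4B (chr5:96777-102430, intron) had 27.7 and 18.7, and RPLP1 (acidic ribosomal protein P1, chr15:69746118-69750031, 3′ UTR) had 12.1 and 25.3. These values were at or above the 99.5th percentile of fold enrichment in each 5 min library.

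RPL37A and RPL34, both proteins of the large ribosomal subunit, gained a 5′ UTR interval (chr2:217362387-217365261) of 16.3 and 20 and an intronic one (chr4:109541262-109543063) of 9.66 and 14.1. SRSF3, an SR splicing factor, had 7.62 and 11.1 over an internal exon (chr6:36564515-36568948). CYCS, which encodes cytochrome c, had 9.76 and 11.1 at its 3′ UTR (chr7:25160257-25162653). MYL12A, a myosin regulatory light chain, had 9.40 and 21.1 in an intron of its gene on chromosome 18.

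The other gained loci named by the rule were upstream of LMLN, a metallopeptidase (12.9 and 14.8), downstream of MMACHC, a cobalamin-processing protein (12 and 14.8), and over exons of MSX1, a homeobox factor (7.02 and 10.3), and KRTAP4-7, a hair keratin-associated protein (6.82 and 14.7). Of the 12 gained loci, 11 also had a peak in both 60 min libraries, and KRTAP4-7 had one in replicate 2. Each of the 12 overlapped a peak of at least 1 of the 5 min DRIP libraries treated with RNase H, the enzyme that digests the RNA of a hybrid, and none overlapped one of NT.

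The strongest lost intervals were mostly GC-rich, with folds between 5.73 and 12.9. SLC16A8 lost 11835 bp (chr22:38468248-38480082), an interval with its midpoint in the 3′ UTR that is longer than the gene of 6.05 kb. It had 7.95 and 7.97 in NT and no peak at 5 min. GALK1, the galactokinase of galactose metabolism, lost 10386 bp (chr17:73745717-73756102) of 8.58 and 9.80. The midpoint of this interval also lies inside ITGB4, 2989 bp from its end, and counts as a loss in the list of keratin and adhesion genes. MAZ, a zinc finger factor that binds G-rich sequence, lost an upstream interval (chr16:29809545-29814557) of 9.24 and 7.91. CAPS, the gene of the calcium-binding protein calcyphosine, lost a downstream interval inside RANBP3 (chr19:5914748-5919513) of 9.27 and 8.67. Of the 12 lost loci, 11 were between 49.4% and 65.2% GC, and SIMC1 stood apart at 42.4%.

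The other lost loci were downstream of FAAP20 (7.83 and 10.9), a Fanconi anaemia core complex protein, upstream of GPR35, an orphan receptor (7.58 and 8.12), and upstream of SCXA (7.99 and 12.9), over exons of RRP12, a ribosome biogenesis factor (7.06 and 6.90), PLXNB1, a semaphorin receptor (5.96 and 8.38), and IGSF9B, an adhesion molecule (5.73 and 5.73), and in introns of ITGAL, an integrin subunit (7.95 and 7.56), and SIMC1, a SUMO-interacting protein (7.99 and 7.38). MAZ, FAAP20, PLXNB1 and IGSF9B had peaks again in both 60 min libraries, and RRP12, GALK1 and SCXA had none in either.

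**Figure D2:**
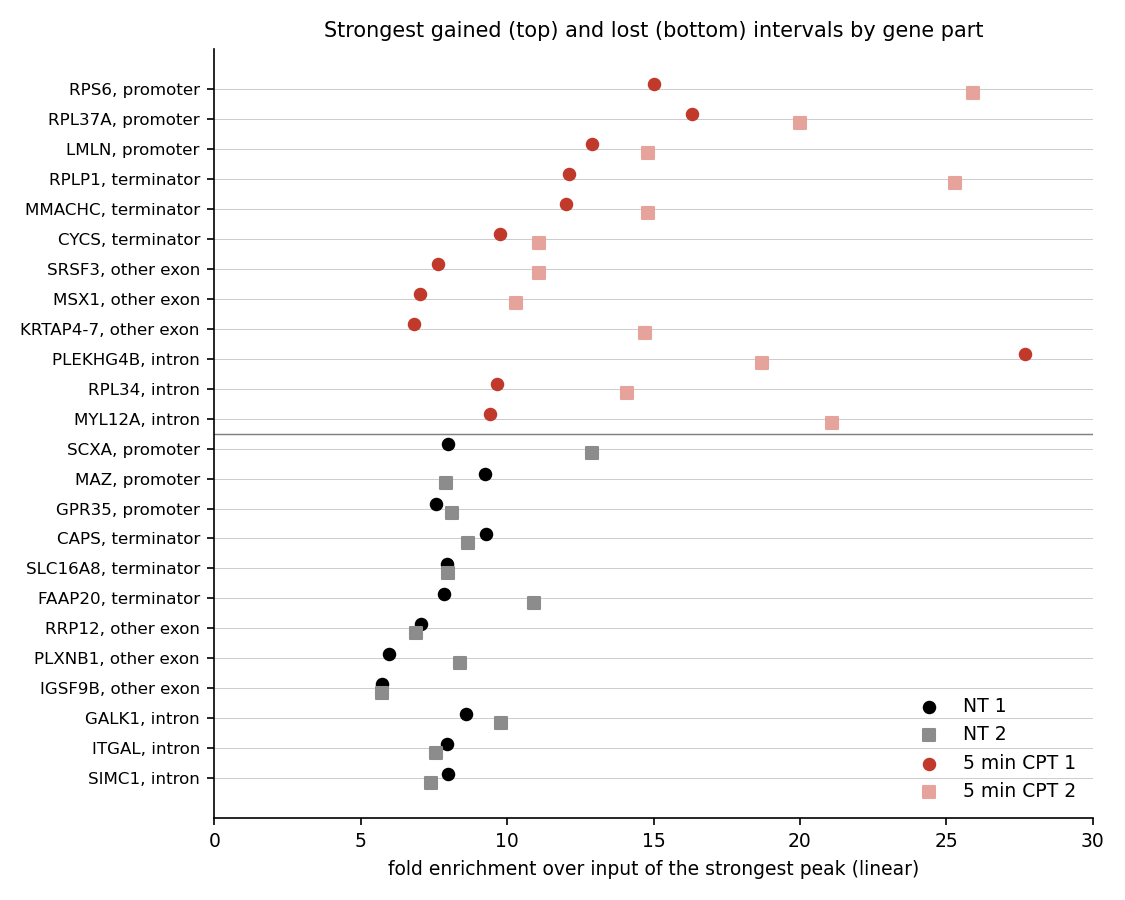
Fold enrichment over input (linear) of the strongest peak in the 3 top gained (upper block) and 3 top lost (lower block) intervals of each gene part, 1 point per library that has a peak there. No point stands for the libraries of the other treatment, where no peak was called. Gained loci reach 27.7 at PLEKHG4B, whereas lost loci lie between 5.73 and 12.9.

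The base composition seen in the printed windows ran through the whole classes. The median GC content was 43.3% in gained, 54.7% in lost, 53.6% in kept and 47.6% in all intervals. It differed in the same direction in each part: 46.7% and 54.9% for gained and lost intervals in promoters, 45% and 56% in terminators, 46.4% and 59.7% in other exons, 43.1% and 54.5% in introns and 39.7% and 49.9% in intergenic sequence. Between 35% and 40% GC, 6.30% of intervals were gained and 0.642% lost. Between 60% and 65%, 1.11% were gained and 9.32% lost.

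Whole libraries hold the gained and lost peaks too, so their values are not separate evidence. Their peaks had a median GC content of 51.2% and 51.9% in NT and 44.7% and 47.9% at 5 min, without overlap. The change was -5.22 percentage points, and -6.50 and -3.94 within replicates 1 and 2 (exact two-sided permutation p = 0.333, the smallest possible for n = 2 against 2, and 1.00 after Benjamini-Hochberg adjustment over the 5 library measures tested). Restriction fragments under the midpoints also differed, with a median of 2152 bp for gained and 3689 bp for lost intervals, and their part in the result was not tested. By chromosome, chromosome 19, rich in GC and in genes, had 117 gained and 535 lost intervals, while chromosome 6 had 234 and 76 and chromosome 18 had 97 and 25.

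**Figure D3:**
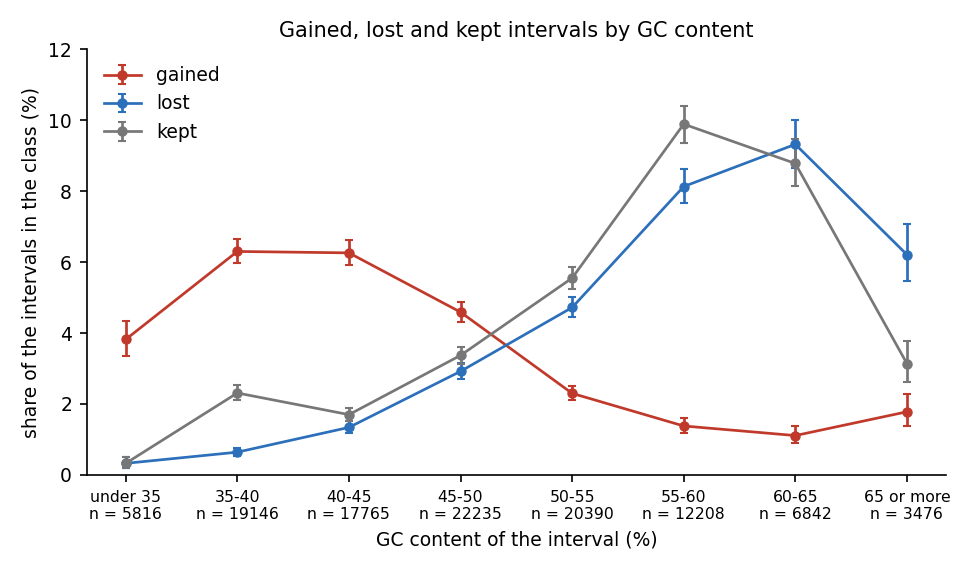
Percentage of the merged intervals in each class of GC content (classes of 5 percentage points, n under each) that were gained, lost or kept, with Wilson 95% intervals. The gained share peaks at 6.30% between 35% and 40% GC, and the lost share at 9.32% between 60% and 65%.

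Gene groups were then counted by members with a gained or a lost midpoint in the gene or within 10 kb. Of 19516 protein-coding genes, 3400 (17.4%) had a gained and 3151 (16.1%) a lost one, which is the background for the counts that follow. No list was tested as a set, and neighbouring genes can share an interval. Lists also differ in gene length, with medians of 0.509 kb for histone, 51.1 kb for repair and 64.6 kb for colorectal cancer genes. The median of all genes was 26.6 kb, and the list shares were not corrected for length. When intervals that met a peak of an RNase H-treated library (5 min libraries for gains, NT for losses) were left out, 10.1% of all protein-coding genes had a gain and 14.9% a loss.

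The replication-dependent histone genes, short intronless genes expressed in S phase, had 20 of 64 members with a gained interval (31.2%) and 0 with a lost one. The 20 genes shared 9 intervals in a few clusters, all assigned to promoters. That part comes first in the order and takes in the 10 kb upstream of any protein-coding gene. In clusters of such short genes the rule itself favours it. At H2AC11, H2BC11 and H4C9 (chr6:27100401-27103259) fold enrichment was 5.73 and 20.8 in the 5 min libraries, and at H1-1, H3C1 and H4C1 (chr6:26019352-26022433) it was 4.81 and 19.7. H2AC25 and H2BC26, a divergent pair on chromosome 1, had 3 intervals, among them one of 8.52 and 10.2 (chr1:228645448-228646578) and one of 8.92 and 7.85 (chr1:228651613-228652461). The former also overlapped a peak of 1 RNase H-treated NT library.

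Counted in each library, 20 and 23 of the 64 histone genes had a peak within 10 kb in NT replicates 1 and 2, 40 and 47 at 5 min, and 37 and 51 at 60 min. The treatments did not overlap at 5 min, at 62.5% and 73.4% against 31.2% and 35.9% in NT, while over all protein-coding genes the shares were 58.9% and 68.8% against 53.6% and 64.7%. Each of the 9 intervals overlapped a peak of 1 RNase H-treated 5 min library, so 0 of the 64 genes had a gain once such intervals were left out. Histone genes are near-identical copies, and how reads that fit several copies were placed was not tested.

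Genes of RNA-binding proteins were next. Of 12 SR splicing factor genes, 5 had a gained interval (41.7%) and 0 a lost one. They were SRSF3, SRSF4, SRSF5, SRSF7 and SRSF9, with 7.57 and 9.09 at a second SRSF3 interval, 5.21 and 10.5 at SRSF5 and 4.66 and 4.52 at SRSF4. Of their 7 intervals 6 overlapped a 5 min RNase H peak, and 1 of the 12 genes (8.33%) had a gain without such intervals. Of 25 hnRNP genes, which package nascent RNA, 11 gained (44%) and 2 lost (8.00%), and 5 of the 25 had a gain without intervals meeting RNase H peaks. HNRNPC had 5.61 and 15.4 in an intron, 2345 bp from its start, and HNRNPUL2, a loss, had 7.59 and 7.25 in NT.

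The snoRNA host genes, whose introns release small nucleolar RNAs, had 9 of 15 members with a gain (60.0%) and 3 with a loss, from a list in which only protein-coding hosts could be matched. TPT1, NAP1L4 and TAF1D had both. Of the 15, 6 (40%) had a gain without intervals meeting RNase H peaks. Ribosomal protein genes had 25 of 86 with a gain (29.1%) and 11 with a loss (12.8%), and RPL37A and RPL36 had both. Without intervals meeting RNase H peaks, 6 (6.98%) had a gain, below the 10.1% of all genes. In whole libraries 71 and 77 of the 86 carried a peak in NT, and 81 and 82 at 5 min.

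Genes of translation factors gained in 18 of 49 (36.7%) and lost in 8 (16.3%), and chaperone genes gained in 28 of 80 (35%) and lost in 13 (16.2%). Without intervals meeting RNase H peaks the gains were 10 (20.4%) and 11 (13.8%). CCT4, a subunit of the TRiC chaperonin, gained 7.91 and 14 at 306 bp upstream of its start (chr2:62113685-62118538). DNAJC17, a DnaJ-domain protein, lost 6.88 and 7.40 and had no peak in the 60 min libraries.

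Genes of the immediate early response, induced without new protein synthesis, gained in 9 of 34 (26.5%) and lost in 2 (5.88%). Without intervals meeting RNase H peaks, 4 (11.8%) had a gain, near the 10.1% of all genes. KLF6, a zinc finger factor, gained an upstream interval of 6.02 and 14.1, and ATF3, a stress-induced factor, an intronic one of 6.76 and 5.25. EGR1, MYC, DUSP1 and BTG2 were among the 9. Targets of p53 had a loss in 7 of 28 (25%) and a gain in 6 (21.4%), and DDB2 and POLH had both. This order rested on few genes and was not stable. At −log10 q of at least 3, 4 had a loss (14.3%) and 6 a gain (21.4%). Of all genes, 12.3% had a loss and 12.2% a gain at that cut. With peaks over at least 50% of the interval, 6 had a loss (21.4%) and 8 a gain (28.6%), against 16.5% and 15.6% of all genes. With lists of equal length they were 7 and 6, and without intervals meeting RNase H peaks 6 and 3.

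Genes of DNA repair and damage signalling gained in 20 of 59 (33.9%) and lost in 11 (18.6%), and 6 had both. XRCC4, a factor of nonhomologous end joining, was among the 6, and its gained interval had 7.99 and 11.1. That interval overlapped a peak in both RNase H-treated 5 min libraries. Without intervals meeting RNase H peaks, 10 of the 59 (16.9%) had a gain. A list of topoisomerase and tyrosyl-DNA phosphodiesterase genes with accessory factors of repair and elongation gained in 4 and lost in 4 of 13. The gains were at TOP1, TOP3A, SPRTN (a protease of DNA-protein crosslinks) and TCEA1 (an elongation factor), and the losses at TOP1MT, TOP3A, TOP3B and TCEA3 (an elongation factor). TOP1 itself, which encodes the target of CPT, gained an interval 384 bp from its start (chr20:39656621-39659070) of 4.48 and 9.17, absent from both NT libraries and present in both 60 min libraries and in no RNase H-treated 5 min library. Genes of RNase H and of R-loop helicases had 4 gains (15.4%) and 3 losses (11.5%) of 26. Of the 26, 2 (7.69%) had a gain without intervals meeting RNase H peaks. DDX5, a helicase that resolves hybrids, had 5.96 and 15.4, and RTEL1, a helicase of telomeres, lost 4.63 and 4.86.

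Genes altered in colorectal cancer gained in 15 of 30 and lost in 6, and B2M (beta-2-microglobulin) had 9.54 and 5.38. Without intervals meeting RNase H peaks, 9 of the 30 (30%) had a gain. Keratin and adhesion genes gained in 9 of 36 (25%) and lost in 4 (11.1%), and 6 (16.7%) had a gain without such intervals. Genes longer than 200 kb gained in 399 of 1454 (27.4%) and lost in 196 (13.5%), and the zinc finger genes of chromosome 19 were below the background in both directions, 12.6% and 8.94% of 246.

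**Figure D4:**
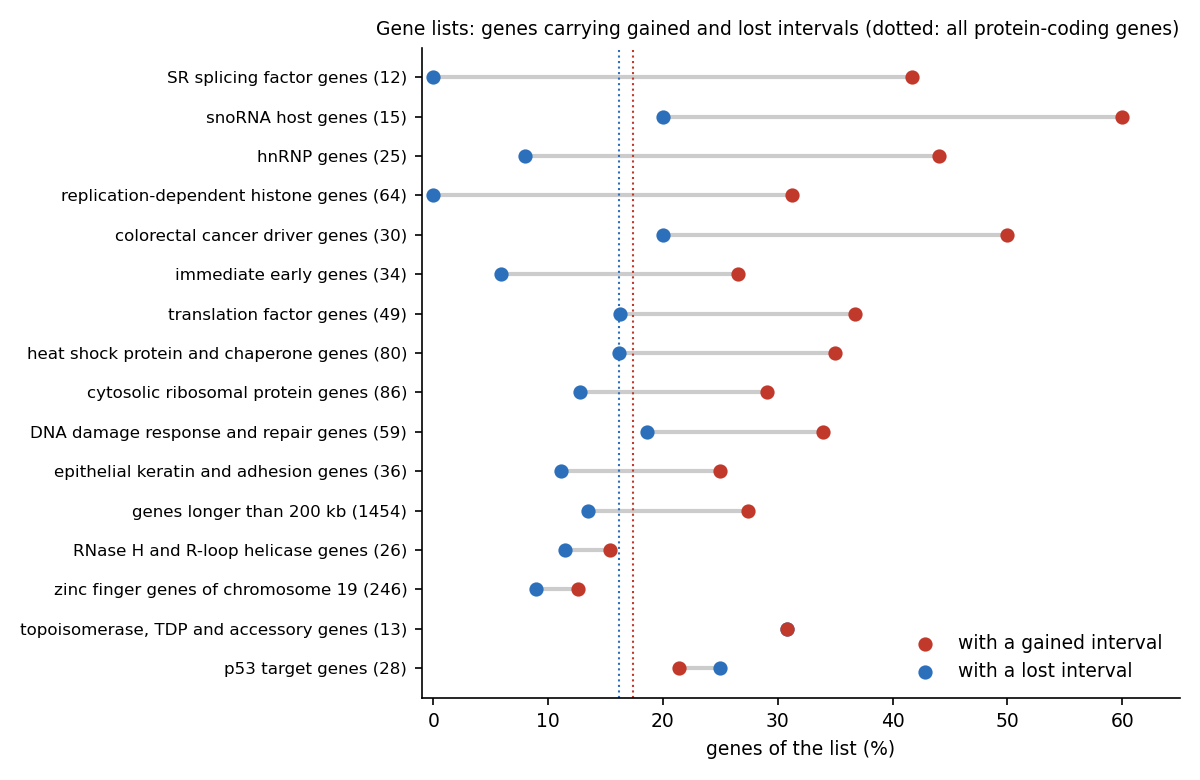
Percentage of the genes of each list (size in brackets) with a gained (red) and with a lost (blue) midpoint in the gene or within 10 kb. Dotted lines mark all protein-coding genes, at 17.4% for gained and 16.2% for lost by symbol. SR and histone genes have 0 losses, and the list of topoisomerase, TDP (tyrosyl-DNA phosphodiesterase) and accessory genes has both at 30.8%. The p53 targets have 25% with a loss and 21.4% with a gain, an order that turned in some settings.

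Outside genes, gained intervals often held LINE-1 sequence. LINE-1 is the retrotransposon that makes up a large part of human DNA. The files hold no repeat annotation, so 24-mers were collected that were more frequent in intergenic than in intronic peaks of the 60 min libraries, 609 in all. The family name comes from general knowledge of these sequences. A representative is printed here to show what was counted.
LINE-1 24-mer: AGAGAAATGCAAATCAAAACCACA
It occurs 20216 times in GRCh37 and was in 4.52% of gained, 0.443% of lost and 3.68% of kept intervals.

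With all 609 of them, LINE-1 sequence was in 377 of 867 gained intergenic intervals (43.5%, Wilson 40.2 to 46.8) and in 49 of 481 lost ones (10.2%, 7.79 to 13.2). Kept intergenic intervals, at 40.9%, were near the gained ones. In introns the shares were 12.9%, 1.65% and 9.79%.

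The replicates differed in LINE-1 more than the treatments did. Counted in the central 500 bp of every peak, 11.9% of NT replicate 1 and 2.69% of NT replicate 2 held a LINE-1 24-mer, against 20.2% and 6.61% at 5 min and 9.14% and 3.92% at 60 min. The 5 min share was the higher within each replicate number, and the treatments overlapped. Gained intergenic intervals with LINE-1 had a peak in both 60 min lists in 12.2% of cases, those without LINE-1 in 16.9%, and gained intervals in or near genes in 47.3%.

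**Figure D5:**
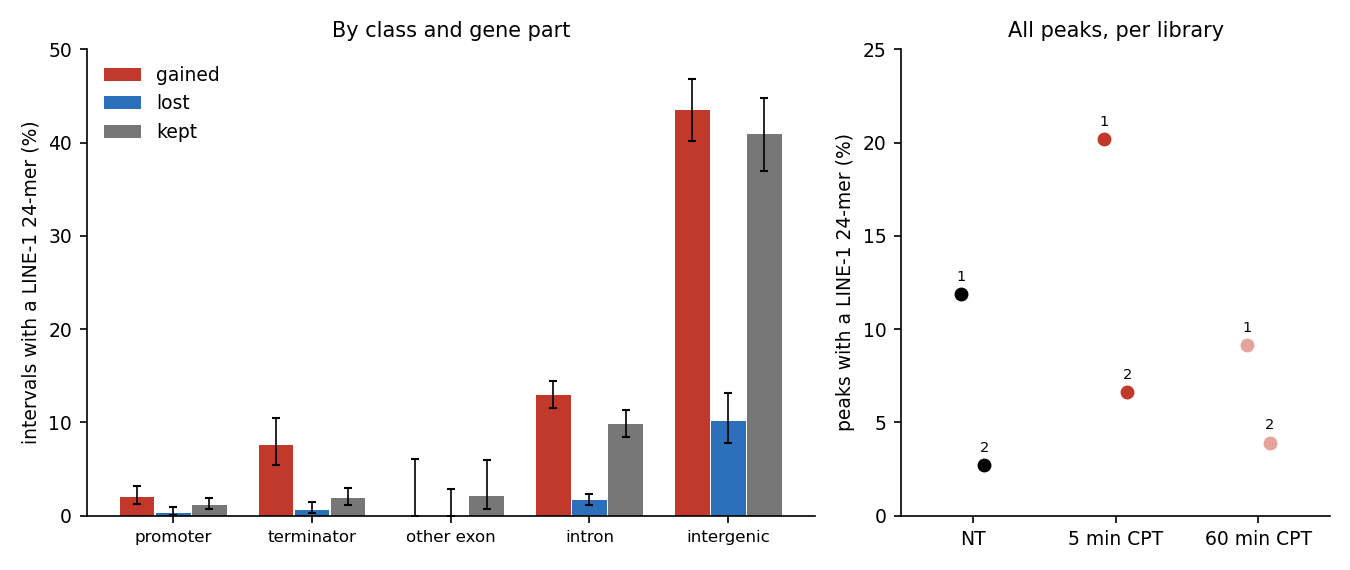
Left, percentage of gained, lost and kept intervals of each gene part that hold a LINE-1 24-mer, with Wilson 95% intervals. Right, percentage of all peaks with a LINE-1 24-mer in their central 500 bp, 1 point per library, numbered by replicate. The gained and kept intergenic bars (43.5% and 40.9%) exceed the lost one (10.2%), and replicate 1 lies above replicate 2 in each treatment.

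Overlap with peaks at 60 min differed by class and by gene part. A peak was present in both 60 min lists at 40.8% (Wilson 39.4 to 42.3) of gained, 15.1% (14 to 16.3) of lost and 81.6% of kept intervals. The order of gained and lost rested on both 5 min libraries: without 5 min replicate 2 the shares were 14% of gained and 31.5% of lost, without 5 min replicate 1 they were 16.6% and 16%, and without NT replicate 1 or 2 they were 40.5% and 48.2% of gained against 6.79% and 8.98% of lost. Among gained intervals in the full comparison it was 59.7% in promoters, 51.5% in terminators, 40.9% in introns and 14.9% between genes. Lost intervals had no peak in either 60 min list in 58.5% of cases, ranging from 43.8% in promoters to 69.2% between genes. The 60 min libraries took no part in the calls of gained and lost. In replicate 2, the 60 min list met 63.8% of gained, 38.3% of lost and 91.9% of kept intervals. The RNase H-treated 60 min list of that replicate met 59.4%, 30.7% and 88.1%. In replicate 1 the RNase H-treated list met 1.64%, 0.964% and 7.63%. How much of the overlap at 60 min came from hybrids was not tested.

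Libraries treated with RNase H before the immunoprecipitation were uneven in size, with 3439 and 50353 peaks at 5 min and 473 and 15790 in NT. A peak of the 5 min RNase H lists of replicates 1 and 2 lay at 2.21% and 44.2% of gained intervals, and one of the NT lists at 0.104% and 12.9% of lost intervals. Kept intervals had 81.7% and 34.6% with a peak in the replicate 2 lists of 5 min and NT. Of gained in-gene midpoints with no RNase H peak, 66.3% lay in the first 50% of the gene, against 39.5% of such lost ones.

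Most gained intervals lay apart from NT peaks. The nearest NT peak was a median of 7514 bp away, and 15.8% had one within 1 kb. For lost intervals the nearest 5 min peak was 3408 bp away, and 768 of 3839 had one within 1 kb. The median width was 793 bp for gained, 944 bp for lost and 3916.5 bp for kept intervals. The first pair of widths was not stable: without NT replicate 1 it was 812 and 435 bp, without NT replicate 2 867.5 and 473 bp, without 5 min replicate 1 397 and 928.5 bp, and without 5 min replicate 2 495 and 1263 bp, and segments shared by both libraries had 395 and 404 bp. Of the kept intervals, 2205 (48.3%) had fewer bases under peaks at 5 min in both replicates and 1040 (22.8%) had more.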

How the data were processed

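DRIP-seq peak lists of HCT116 cells were compared (2 libraries each of NT and 5 min CPT, with the 60 min and RNase H lists only as side values). Per the labels and the methods, cutadapt trimming was followed by BWA alignment to hg19 and to the spike-in yeast genome (sacCer3); duplicates and blacklisted regions were removed, and the authors called MACS2 peaks in each library over its own input. SAMtools, FastQC and deepTools are named in the submitters' processing notes, and the versions and the treatment of reads that fit several places are not given in the sources used here. The deposited columns hold the peak position, the fold enrichment (a ratio over input), and the −log10 p-value and −log10 q-value of the caller. These are calls, not read counts, so the methods' limma comparison of spike-in normalised counts was not run, and the reads behind a call are not in these files.

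Peaks were merged and assigned with Python 3.11.15, pandas 2.3.3, NumPy 2.4.6, SciPy 1.17.1 and pysam 0.24.0 and plotted with Matplotlib 3.10.9, using GRCh37 and GENCODE release 44 lifted to it (19516 protein-coding genes). Chromosome lengths were checked against the build. RefSeq tables, of another build, were not used. Scripts were tested on simulated data. Coordinates are 1-based. Shares carry Wilson 95% intervals. The 5 planned library measures (number, median width, median GC content, promoter share and intergenic share of peaks) were tested by exact two-sided permutation over 4 libraries, with Benjamini-Hochberg adjustment; the share in the first 50% of genes was added later. P-values measure only the spread between these samples.

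Genes were named by rule: in each direction and gene part the 3 intervals whose lower percentile of fold enrichment over both libraries was highest; the 5 genes with most gained, most lost and most of both; and up to 3 members per list and direction. Printed sequences were taken from the 3 best per direction without an exon, and some items chosen by these rules are not reported here. Other list members are named only in counts of membership, and a few values (SRSF4, SRSF5, the histone clusters) were picked after their values were seen. Members and lists were chosen with earlier results of these data known. Position along genes and the repeat 24-mers were examined after values were seen. Alternatives were a q-value cut, lists of equal length, coverage, shared segments, neighbouring peaks, RNase H lists, chromosomes, overlap, window size, annotation, GC window, each library left out and the replicate block.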

Additional observations from a re-analysis of the deposited data

Results flagged for a closer look

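Peaks remained in RNase H-treated DRIP at many of the intervals that appeared at 5 min. In the RNase H list of 5 min CPT replicate 2, which took no part in the calls, 44.2% of gained intervals had a peak, beside 16.9% of lost and 81.7% of kept intervals. The NT list of the same replicate met 3.87% of gained, 12.9% of lost and 34.6% of kept intervals, where a low gained share follows in part from the call, which asks for no NT peak. Replicate 1 gave 2.21% of gained with its 5 min list and 0% with its NT list. The 5 min list of replicate 2 is also the longest of these 4 lists, with 50353 peaks against 15790 in NT replicate 2, and the part of list length in the difference was not tested.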

How the results depend on the processing

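The numbers were not treated as pairs. Deviations of same-numbered libraries had a correlation of 0.0175 across 107878 intervals. An interval with peaks on 1 side only has no deviation on the other, so this value cannot show whether the numbers pair. Intervals with a peak in 1 library of each side had same-numbered libraries in 5656 (replicate 2) and 1445 (replicate 1) cases. Differently numbered libraries shared 1167 and 1298. Replicate 2 had the longer list in each treatment. With the replicate block, the GC change stayed -5.22 and the first-50% change 9.44, and the exact p was 0.5, the smallest possible, for peaks, median width, GC content and the share in the first 50% of genes, and 1.00 for promoter and intergenic shares.

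Gained intervals numbered 4337, 2631 at −log10 q of at least 3, 2395 without intervals meeting RNase H peaks, and 5335 to 31438 when 1 library was left out, which asks for fewer libraries (31438 without 5 min replicate 1, 19980 without 5 min replicate 2). Lost intervals ranged from 4388 to 32978 with 1 library left out (32978 without NT replicate 1, 14150 without NT replicate 2, 7755 without 5 min replicate 2). On replicate pair 1 or 2 alone (chosen after seeing the data) gained were 24012 and 33924 and lost 21680 and 34888.

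The GC difference (lost minus gained, 11.4 points) stayed positive: 12.9 without RNase H intervals, 12 over 1000 bp, 9.94 without LINE-1, 9.01 and 7.52 in the pairs, and 5.03 to 13.9 with 1 library left out. The first-50% difference (gained minus lost, 31.1) stayed positive: 36.6 at the stricter q, 36.1 with lists of equal length, 26.8 without RNase H intervals, 28.2 with all genes, 17.1 and 15 in the pairs, and 16.9 to 28.4 with 1 library left out.

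The promoter difference (lost minus gained, -1.30) changed sign: -5.00 with equal lists, 2.32 without RNase H intervals, -4.35 with 2 kb windows, -3.89 with all genes, -4.39 without LINE-1, 4.91 and 1.31 in the pairs, and -9.80 to 11.4 with 1 library left out. The intergenic difference (gained minus lost, 7.46) was 4.71, 12.7, 3.88, 4.87 and 1.96 in the same first 5 settings, 16.2 and -1.46 in the pairs, and -6.83 without NT replicate 2 to 28.7 without 5 min replicate 2. Library differences (5 min minus NT) that turned were the promoter share (0.477 with 2 kb windows, -3.41 to 0.888 with 1 library left out), the intergenic share (-3.79 to 12.3), peaks (-7788.5 to 14902.5) and median width (-74.0 to 5.00). The causes were not tested.

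Gene lists move with their background. With 1 library left out, genes with a gain rose to between 19.3% (without NT replicate 1) and 53.1% (without 5 min replicate 1) of all genes, and those with a loss to between 17.4% and 53.3%. Beside that, histone genes had gains in 42.2%, 35.9%, 62.5% and 40.6% without NT replicates 1 and 2 and 5 min replicates 1 and 2, against 19.3%, 25.4%, 53.1% and 39.4% of all genes, and losses in 12.5% without NT replicate 1 against 53.3%. With equal lists a peak count gives no value. Of 142 comparison values, 85 stayed close, 44 moved and 13 turned. Each call rests on 2 libraries, and absence of a peak is not absence of hybrid.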
